A study of Mus musculus with 6 samples.

Results

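Unconventional myosins are the myosins of all classes other than class II. The 9 described here, Myo1c, Myo1e, Myo5a, Myo6, Myo9a, Myo9b, Myo10, Myo18a and Myo18b, are 9 of the 16 genes named Myo followed by a digit in a count table of 12625 genes. They were chosen by name, with their fold changes and calls for RANKL against vehicle in these 6 libraries already known. The differences between RANKL and vehicle given for them, and the calls that the fit over all genes made of them, are therefore a description and no independent evidence. The cells were C2C12, an established line of mouse myoblasts that form myotubes when differentiated. In 3 libraries the myotubes, at day 5 of differentiation, had received recombinant mouse RANKL at 100 ng per ml for 72 h, and 3 libraries came from myotubes given vehicle. For the vehicle libraries the labels state neither the day of differentiation nor the duration. Whether these matched the RANKL libraries cannot be told from the labels. RANKL is a cytokine of the tumour necrosis factor family, best known for driving osteoclast formation. The libraries held 32732604 to 39677999 counts each. Both groups come from the same cell line, and nothing in the labels says that replicates were separate cultures, so tests measure only the spread between these libraries, which may be technical.

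Every myosin pairs a motor head that binds actin and ATP with a neck that carries calmodulin or light chains, and the tail decides what the motor carries or anchors. Class I myosins tether membranes to actin, Myo5a and Myo6 carry vesicles toward opposite ends of the actin filament, and the tails of Myo9a and Myo9b switch off the GTPase RhoA. Myo10 travels to the tips of filopodia, and the class XVIII pair, Myo18a and Myo18b, is thought to act as an actin anchor more than as a motor. In muscle, Myo18b is known for its part in assembling sarcomeres.

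The windows around the annotated start sites, from 250 bases before to 50 after, were taken from RefSeq on build GRCm38.p6 for 8 of the 9 members, with 12 windows in all. Windows of 3 members are shown, Myo1e and Myo10 because they were lower in every RANKL library and Myo9b because it was not. All lie on the plus strand, Myo1e at chr9:70207100-70207399, Myo10 at chr15:25622300-25622599 (the first of 2 windows) and Myo9b at chr8:71272464-71272763. Capitals mark every match, on either strand, to the motifs searched.
Myo1e: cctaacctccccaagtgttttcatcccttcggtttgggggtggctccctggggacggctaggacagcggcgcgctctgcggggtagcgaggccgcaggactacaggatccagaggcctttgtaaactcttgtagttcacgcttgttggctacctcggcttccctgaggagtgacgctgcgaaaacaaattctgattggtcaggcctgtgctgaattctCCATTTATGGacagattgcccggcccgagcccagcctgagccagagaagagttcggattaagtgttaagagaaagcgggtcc
Myo10: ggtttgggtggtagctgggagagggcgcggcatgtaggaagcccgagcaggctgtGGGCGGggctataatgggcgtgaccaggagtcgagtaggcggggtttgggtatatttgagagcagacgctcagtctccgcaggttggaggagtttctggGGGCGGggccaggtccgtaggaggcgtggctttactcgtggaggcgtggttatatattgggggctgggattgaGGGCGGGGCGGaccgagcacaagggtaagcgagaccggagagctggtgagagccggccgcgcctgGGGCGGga
Myo9b: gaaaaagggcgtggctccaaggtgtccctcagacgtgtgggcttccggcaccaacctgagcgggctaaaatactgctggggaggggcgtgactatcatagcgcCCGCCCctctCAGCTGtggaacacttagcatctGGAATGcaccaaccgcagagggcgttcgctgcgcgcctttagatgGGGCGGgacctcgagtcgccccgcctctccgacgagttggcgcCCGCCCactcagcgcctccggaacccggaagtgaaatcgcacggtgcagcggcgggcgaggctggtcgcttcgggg

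The motifs, searched on both strands, were CAGCTG (the E-box that myogenic factors favour), TGANTCA (AP-1), TGACGTCA (the cyclic AMP response element), GGAATG (TEAD), GGGCGG (SP factors), TATAAA (the TATA box) and, by name, the kappaB site, the CArG box of serum response factor and the MEF2 site. The Myo1e window held 1 match, the CArG box CCATTTATGG at position -32 from the start. Of 32841 windows from 27018 annotated genes, 1.63% held a CArG box. These windows, called all windows below, were not limited to the 12625 genes counted here, so members and background are unlike sets. GGGCGG stood in 9 of the 12 member windows, from 7 members, and in 35.7% of all windows. The GC content of the member windows ran from 43.0% to 74.3%, and the median of all windows was 52.7%. Myo10 had 5 such matches, of which the pair at -23 and -18 overlap. The Myo9b window held 3, along with CAGCTG at -137 and GGAATG at -114. CAGCTG was found in 4 of the 12 member windows (16.3% of all windows), GGAATG in 3 (14.7%), TGANTCA in 1 (7.81%) and TATAAA in 1 (13.6%). No member window held a kappaB site, a MEF2 site or TGACGTCA, which 6.93%, 3.19% and 1.79% of all windows held. These matches are letters in a window and say nothing of which factor binds there.

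The 9 members covered a wide range of levels. Levels between genes are compared as CPM per kilobase, where CPM is the usual scaling of counts to library size, from the log2 values that the authors deposited. With the gene lengths behind those values, Myo10 stood highest, at 121 ± 4.24 under RANKL and 143 ± 5.85 under vehicle (mean ± SD, n = 3 in each group). Myo6 stood lowest, at 2.49 ± 0.170 under RANKL and 2.45 ± 0.00965 under vehicle. Myo1c came close behind Myo10 with 118 ± 4.18 under RANKL and 132 ± 1.29 under vehicle, and the ranges of this pair overlapped in the RANKL libraries while they did not in the vehicle libraries. Myo18a followed with 67.0 ± 1.41 under RANKL and 78.5 ± 2.29 under vehicle, and Myo1e with 26.1 ± 1.75 under RANKL and 33.2 ± 0.597 under vehicle. Myo5a had 15.6 ± 0.915 under RANKL and 16.8 ± 0.396 under vehicle, and Myo9b had 14.6 ± 0.585 under RANKL and 13.9 ± 0.437 under vehicle. These neighbours overlapped in the RANKL libraries and stood apart in the vehicle libraries. Myo9a had 6.62 ± 0.290 under RANKL and 6.86 ± 0.331 under vehicle, and Myo18b had 5.43 ± 0.116 under RANKL and 6.70 ± 0.195 under vehicle. This pair stood apart in the RANKL libraries and overlapped in the vehicle libraries. With these lengths the order of the means was the same in both groups. With gene lengths from GENCODE M21 in their place, 5 of 9 places were kept under RANKL and 7 of 9 under vehicle. Myo9b then stood above Myo5a in both groups. Myo1c stood above Myo10 under RANKL (101 and 97.0 CPM per kilobase) and just below it under vehicle (113.5 and 114 CPM per kilobase), so which of these leads depends on the lengths used. Over genes, the lengths from both sources correlated at r = 0.786 on the log2 scale.

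**Figure D1:**
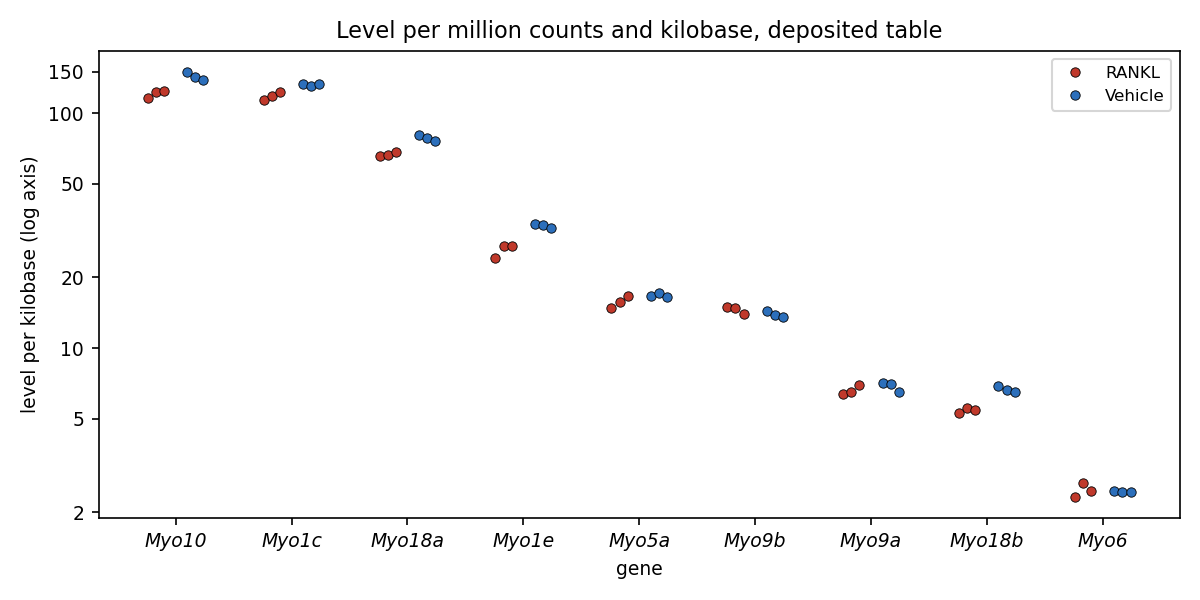
Level of each member, in CPM per kilobase (log axis), in the 3 RANKL and the 3 vehicle libraries, 1 point a library. Myo10 and Myo1c lie highest, with means of 121 and 118 under RANKL and 143 and 132 under vehicle, and Myo6 lies lowest.

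In CPM with TMM library scaling, the scale of all values below, Myo10, Myo1c and Myo18a together made up 79.4% ± 0.116 of the summed CPM of the 9 members under RANKL and 80.2% ± 0.280 under vehicle (SD, n = 3 each). The sum itself was 2626, 2739 and 2794 CPM in RANKL replicates 1, 2 and 3, against 3203, 3106 and 3052 CPM in the vehicle replicates. All RANKL libraries lay below all vehicle libraries, with a mean of 87.2% of the vehicle mean. RNA was taken from whole cultures, in which fewer cells of a type and less RNA per cell cannot be told apart.

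In edgeR's fit over all 12625 genes, 5 of the 9 members were called lower under RANKL (Myo1c, Myo1e, Myo10, Myo18a and Myo18b), 0 were called higher and 4 were not called. The same 5 did not overlap between the groups. A call means an adjusted p under 0.05 in edgeR's quasi-likelihood test. Of all genes tested, 12.9% were called (7.50% lower and 5.35% higher), and 31.5% did not overlap between the groups (16.6% with lower and 14.9% with higher values under RANKL). Of all calls 41.7% were higher under RANKL with TMM scaling and 63.1% with total count scaling. Because the members were listed with this contrast known, nothing is read from their count against these shares. At an unadjusted p under 0.05 in edgeR's test, 6 members were lower and 0 higher. Of all 12625 genes, 1836 were lower and 1596 higher at that threshold. DESeq2 and limma-voom also called 5 members lower and 0 higher. The median log2 fold change was -0.16 over the members and 0.0047 over all genes.

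**Figure D2:**
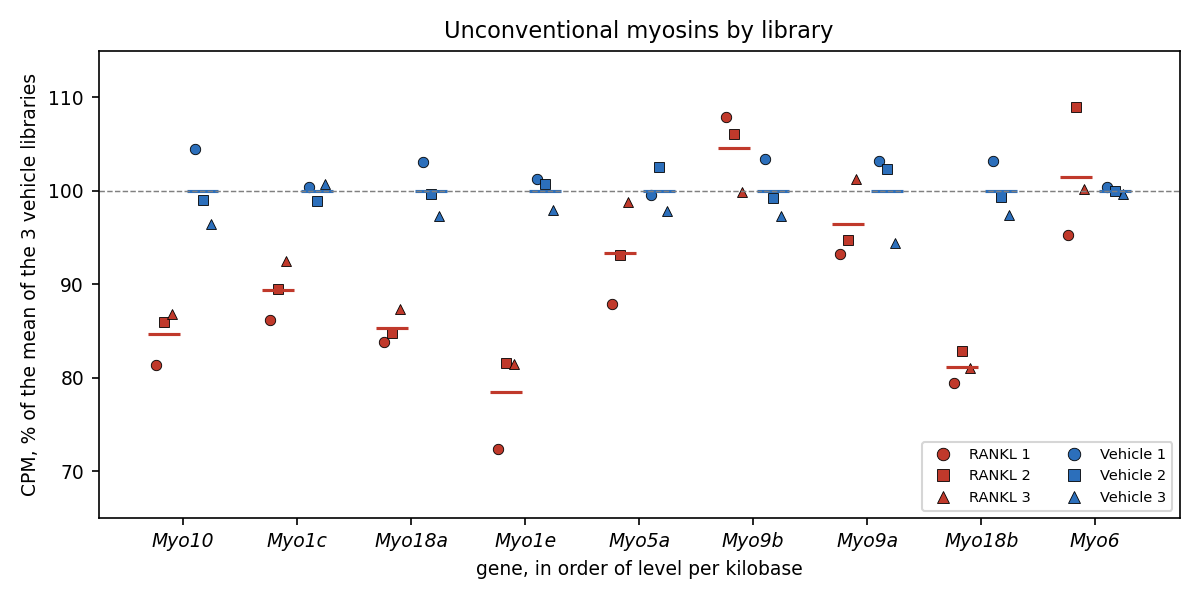
CPM of each member in each library as a percentage of its mean in the 3 vehicle libraries; marks show the replicate, horizontal bars the group means, and the axis starts at 65%. For Myo10, Myo1c, Myo18a, Myo1e and Myo18b all RANKL points lie below all vehicle points.

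Of all members, the class I myosin Myo1e had the lowest fold change. Myo1e, a long-tailed form with an SH3 domain that acts in endocytosis and in the kidney filter, is encoded on chromosome 9 from 70207350 to 70399766 (mm10, as for all gene positions here). It had 119, 134 and 134 CPM in RANKL replicates 1, 2 and 3, against 166, 166 and 161 CPM in the vehicle replicates. The groups lay 26.9 CPM apart at their nearest libraries, and RANKL replicate 1 was the lowest. Its log2 fold change was -0.35 ± 0.04 (SE), or 21.6% lower. Myo1c, which helps to insert glucose transporter vesicles into the plasma membrane, lies on chromosome 11 from 75650504 to 75673910. It had 644, 669 and 691 CPM under RANKL and 750, 739 and 753 CPM under vehicle. The vehicle libraries were close together, with coefficients of variation of 3.53% under RANKL and 0.9753% under vehicle, and the log2 fold change was -0.16 ± 0.03.

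Myo10, the filopodial motor, had the highest CPM of the members in every library and lies on chromosome 15 from 25622525 to 25813673. It had 942, 996 and 1006 CPM in the RANKL libraries, against 1210, 1148 and 1118 CPM in the vehicle libraries. The nearest libraries of the groups differed by 111 CPM, and the log2 fold change was -0.24 ± 0.04, or 15.3% lower.

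Both class XVIII myosins were lower in every RANKL library than in any vehicle library. Myo18a, a widely expressed protein with a PDZ domain that links the Golgi to actin, lies on chromosome 11 from 77763246 to 77865980. It had 500, 505 and 520 CPM under RANKL and 614, 594 and 580 CPM under vehicle, a log2 fold change of -0.23 ± 0.03. Myo18b, its striated muscle relative, lies on chromosome 5 from 112688876 to 112896362. It had 44.0, 45.9 and 44.9 CPM under RANKL and 57.1, 55.0 and 54.0 CPM under vehicle, a log2 fold change of -0.30 ± 0.04, or 18.9% lower. Per kilobase, Myo18a stood above the muscle form in both groups (67.0 against 5.43 under RANKL, 78.5 against 6.70 under vehicle). With M21 lengths, in which the exons of Myo18a cover 16037 bases in place of the 7589 behind the deposited values, the levels were 31.7 against 4.20 under RANKL and 37.2 against 5.18 under vehicle. Exons of Myo18b share 248 bases, 2.32% of their length, with an antisense gene, and without knowing whether strand was used in counting, these reads cannot be told apart.

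The vesicle carriers differed less between the groups. Myo5a, which moves pigment granules and other vesicles outward, lies on chromosome 9 from 75071015 to 75223688. It had 172, 183 and 194 CPM in the RANKL libraries and 195, 201 and 192 CPM in the vehicle libraries. RANKL replicate 3 stood among the vehicle values, so the groups overlapped, and the log2 fold change was -0.10 ± 0.04. Without RANKL replicate 3 it was -0.14 and edgeR called it, and without RANKL replicate 1 it was -0.06. Myo6, the myosin that walks toward the minus end of actin, lies on chromosome 9 from 80165031 to 80311729. It had 18.3, 20.95 and 19.3 CPM under RANKL and 19.3, 19.2 and 19.1 CPM under vehicle. The RANKL libraries thus fell on both sides of a very narrow vehicle range, with coefficients of variation of 6.87% under RANKL and 0.395% under vehicle, and the log2 fold change was 0.02 ± 0.06.

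The RhoA-inactivating pair did not separate the groups either. Myo9a lies on chromosome 9 from 59750896 to 59928866 and had 76.6, 77.8 and 83.1 CPM under RANKL and 84.7, 84.1 and 77.6 CPM under vehicle, a log2 fold change of -0.05 ± 0.04. Myo9b lies on chromosome 8 from 71272714 to 71360713 and had 110, 108 and 101 CPM under RANKL and 105, 101 and 98.8 CPM under vehicle, a log2 fold change of 0.07 ± 0.04. In both genes the ranges overlapped. Over the alternatives the log2 fold change of Myo9a ran from -0.10, with the GC trend removed, to -0.02, with total count scaling, and was -0.09 without RANKL replicate 3 or vehicle replicate 3. That of Myo9b ran from 0.05, without RANKL replicate 1, to 0.10, with the GC trend removed, and neither gene was called in any of them. Exons of Myo9b share 116 bases (1.55%) with Haus8 on the opposite strand, and those of Myo9a share 166 bases and 59 bases with 2 such genes, so their counts are uncertain to that extent.

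Within a group, the same library was often the extreme one. RANKL replicate 1 was the lowest RANKL library for 8 of 9 members, the exception being Myo9b, where it was the highest. Vehicle replicate 3 was the lowest vehicle library for 8 of 9, and vehicle replicate 1 the highest for 7. How often each library was the extreme one over all genes was not counted. Over all genes, replicates 1 and 3 were the most unlike pair in each group (chi-square per gene 9.52 under RANKL and 8.45 under vehicle). Leaving out RANKL replicate 1 gave log2 fold changes of -0.29 for Myo1e and -0.13 for Myo1c, and the 5 members called lower were called in each of 16 other settings. Among these settings, the other filters removed no gene and repeat the main fit, so they are no separate check.

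The other 7 measured unconventional myosins were not in the list. Of these 1 fell and 0 rose in edgeR's test, with 1 lower and 0 higher at an unadjusted p under 0.05, and DESeq2 and limma-voom called 0 higher. Over all genes, edgeR called 7.50% lower and 5.35% higher. Myo1d, another class I myosin, had 27.5, 31.8 and 31.6 CPM in the RANKL libraries, against 36.6, 36.5 and 36.6 CPM in the vehicle libraries, a log2 fold change of -0.27 ± 0.05 (edgeR's quasi-likelihood test, adjusted p = 0.00439). Its groups did not overlap, and it kept its call in all 15 alternatives, with adjusted p from 0.00097 to 0.0223. Myo19, a mitochondrial myosin, stood at 11.6 ± 0.508 CPM under RANKL and 10.8 ± 0.206 under vehicle, with a log2 fold change of 0.10 ± 0.07 (adjusted p = 0.38 by edgeR). Myo1a, Myo1h, Myo7a and Myo7b, known from epithelia with microvilli or from the inner ear, had means between 0.405 and 4.20 CPM under RANKL and between 0.525 and 4.19 CPM under vehicle. Their log2 fold changes lay between -0.35 ± 0.29 and 0.01 ± 0.13, and for Myo7a the 95% interval ran from -0.97 to 0.27, so that a change of the size seen for Myo1e could not be told from none at this depth. Of Myo1h exons 25.8% overlap Kctd10 on the opposite strand. Myo1f, Myo1g, Myo3a, Myo3b, Myo5b, Myo5c, Myo15 and Myo16 were not analysed here.

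**Figure D3:**
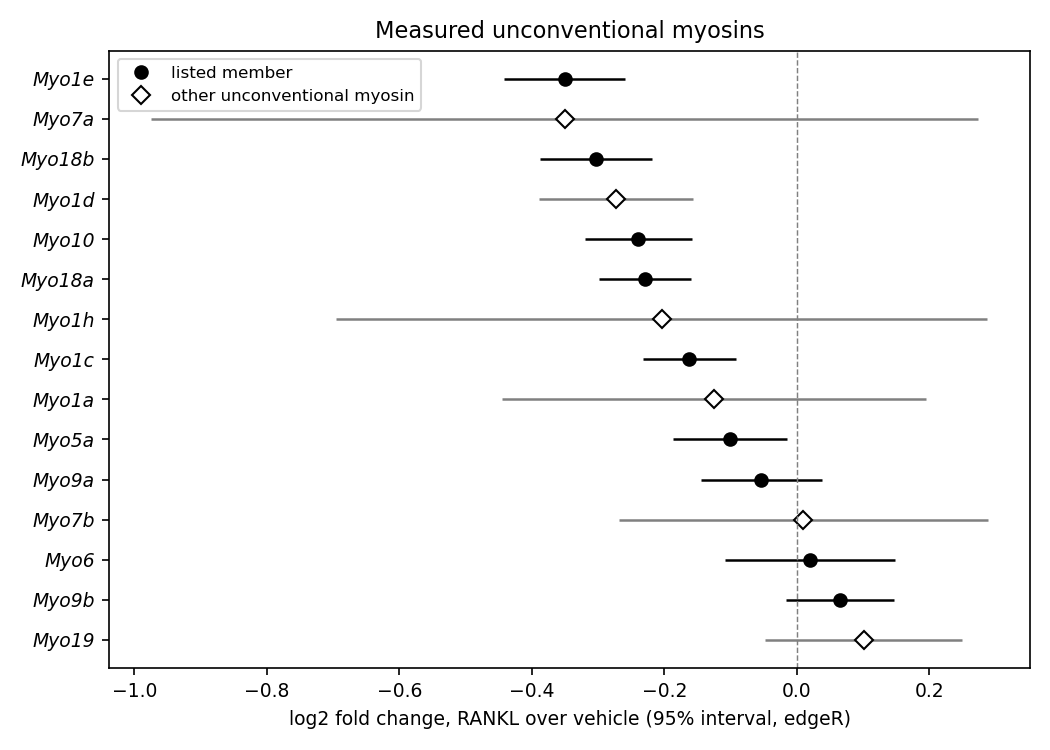
Log2 fold change of RANKL over vehicle for 15 of the 16 measured unconventional myosins, with 95% intervals from edgeR; filled circles are the 9 members and open diamonds 6 others. Myo1e lies lowest of the members at -0.35, and intervals widen for the scarce Myo7a and Myo1h.

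The genes that unconventional myosins work with were taken from 5 lists. These lists were chosen with earlier results of these data known, and the naming rule took genes by smallest p. Their values are therefore a description too. Over all genes, 7.50% were called lower and 5.35% higher. At an unadjusted p under 0.05 in edgeR's test, 1836 of all 12625 genes were lower and 1596 higher. Among calmodulin and myosin light chains, the subunits of the neck, 1 of 9 measured genes fell and 0 rose. At an unadjusted p under 0.05, 1 was lower and 1 higher, and DESeq2 and limma-voom called 0 higher. Myl6b, an essential light chain, had 188, 247 and 243 CPM under RANKL and 288, 285 and 294 CPM under vehicle, a log2 fold change of -0.35 ± 0.07 (edgeR, adjusted p = 0.00534). RANKL replicate 1 was far below the others, and without it the log2 fold change was -0.23, still called. The calmodulin genes Calm2 and Calm3 did not pass, at 159 ± 5.09 and 232 ± 1.69 CPM under RANKL and 149 ± 7.62 and 235 ± 2.32 CPM under vehicle (both outside the naming rule, taken up with their values known). Over the 9 genes the median log2 change was -0.02, and without RANKL replicate 1 a gene was called higher.

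In the list of RhoA, the GTPase that Myo9a and Myo9b switch off, and non-muscle myosin II, 5 of 16 genes fell and 0 rose. The list also holds kinases acting below Cdc42 and subunits of myosin phosphatase, so its count does not describe a single pathway. At an unadjusted p under 0.05, 7 were lower and 1 higher, and DESeq2 and limma-voom called 0 higher. The median log2 fold change was -0.06. Mylk, the kinase of the myosin regulatory light chain, had 47.1 ± 1.80 CPM under RANKL and 56.9 ± 3.36 under vehicle (log2 fold change -0.27 ± 0.05, adjusted p = 0.00175 by edgeR). Rhob, a small GTPase close to RhoA, had 429 ± 5.92 CPM under RANKL and 473 ± 6.88 under vehicle (-0.14 ± 0.03, adjusted p = 0.00582), while Rhoa itself had 413 under RANKL and 410 under vehicle. Ppp1r12a, the targeting subunit of myosin phosphatase, fell by 0.11 ± 0.03 on the log2 scale (adjusted p = 0.0229). The others that fell were Myh10, a non-muscle heavy chain (-0.14 ± 0.04, adjusted p = 0.0336), and Cdc42bpg, a kinase acting below Cdc42 (-0.19 ± 0.05, adjusted p = 0.0284, named after its values were seen). The call of Ppp1r12a ended without RANKL replicate 2 or any 1 vehicle replicate and with total count scaling, that of Myh10 in these and without RANKL replicate 1. Cdc42bpg was not called without any 1 of the RANKL replicates, without vehicle replicate 1 or 3, or with total count scaling or the GC trend removed, which gave -0.13, its value nearest to 0. Myh9, the most abundant non-muscle heavy chain, had 1759 ± 23.9 CPM under RANKL and 1862 ± 61.9 under vehicle without passing (-0.08 ± 0.03, adjusted p = 0.134), and Myh14 had -0.06 ± 0.10 (adjusted p = 0.741), though without RANKL replicate 1 it was called at -0.23. Over the whole list 2 genes fell and 1 rose with total count scaling, and 2 to 4 fell when a library was left out (2 without RANKL replicate 2 or vehicle replicate 1 or 3, 3 without vehicle replicate 2), with 1 rising without RANKL replicate 1.

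Of the cargo adaptors, Rab partners and chaperones of myosins, 2 of 25 measured genes fell and 0 rose. At an unadjusted p under 0.05, 4 were lower and 2 higher, and DESeq2 and limma-voom called 0 higher. The median log2 fold change was -0.02. Tom1l2, an endosomal adaptor of Myo6, had 152 ± 1.88 CPM under RANKL and 166 ± 5.26 under vehicle (-0.13 ± 0.03, adjusted p = 0.0171 by edgeR). Its call ended without RANKL replicate 2, without vehicle replicate 1 or 3 and with total count scaling. Rab27a, the GTPase that ties Myo5a to melanosomes, had 2.04, 2.47 and 3.47 CPM under RANKL and 3.42, 4.75 and 4.17 CPM under vehicle, so the groups overlapped (-0.63 ± 0.18, adjusted p = 0.0309). Its call ended without RANKL replicate 1 or 2 and without vehicle replicate 2 or 3. With total count scaling 1 gene of the list fell and 2 rose, and 1 fell without RANKL replicate 1 or 2 or any 1 vehicle replicate. Unc45b, the muscle chaperone that folds myosin heads, had a log2 fold change of 0.03 ± 0.03 and did not pass (named after its value was seen).

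Among filopodia and integrin partners, the machinery that Myo10 shares, 4 of 12 measured genes fell and 2 rose, with a median log2 fold change of -0.03. At an unadjusted p under 0.05 in edgeR's test, 4 were lower and 4 higher. Enah, an actin elongation factor, had 271, 275 and 275 CPM in the RANKL libraries and 308 CPM in each vehicle library (-0.17 ± 0.03, adjusted p = 0.00151 by edgeR). Raph1 (lamellipodin), which recruits it, had 144 ± 6.39 CPM under RANKL and 165 ± 7.22 under vehicle (-0.20 ± 0.04, adjusted p = 0.00523). Tln1 (talin), which couples integrins to actin, had 908 ± 9.64 CPM under RANKL and 1016 ± 40.2 under vehicle (-0.16 ± 0.03, adjusted p = 0.00652). These 3 kept their calls in all 15 alternatives. The formin Fmnl3 fell by 0.13 ± 0.04 on the log2 scale (adjusted p = 0.0385), and was not called without RANKL replicate 1 or 2, without any 1 vehicle replicate, or with total count scaling or the GC trend removed. The genes that rose were the filopodial bundler Fscn1 (0.12 ± 0.03, adjusted p = 0.0294) and the GTPase Cdc42 (0.12 ± 0.03, adjusted p = 0.0144). Fscn1 was not called without RANKL replicate 2 or vehicle replicate 2 or 3, nor Cdc42 without vehicle replicate 1 or 2 or with the GC trend removed, where it was 0.07. In the list 3 genes rose without RANKL replicate 1 or 3, 1 without RANKL replicate 2 or vehicle replicate 1 or 3, and 0 without vehicle replicate 2. Fmnl3, Fscn1 and Cdc42 were named after their values were seen.

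Of the endocytic actin partners, which include those known for Myo1e, 4 of 15 genes fell and 0 rose. At an unadjusted p under 0.05, 5 were lower and 3 higher, and DESeq2 and limma-voom called 0 higher. The median log2 fold change was -0.01. Dnm2 (dynamin 2), which pinches vesicles from the membrane, had 159 ± 1.81 CPM under RANKL and 178 ± 3.60 under vehicle (-0.16 ± 0.03, adjusted p = 0.00338 by edgeR) and kept its call in all 15 alternatives. Wasl (N-WASP), an activator of branched actin, had 65.8 ± 3.32 CPM under RANKL and 73.2 ± 0.859 under vehicle (-0.15 ± 0.04, adjusted p = 0.0208). Its call ended without RANKL replicate 1, any 1 vehicle replicate, or with total count scaling. The junction protein Tjp1 had 290 ± 7.61 CPM under RANKL and 313 ± 4.95 under vehicle (-0.11 ± 0.03, adjusted p = 0.0306), with no call without RANKL replicate 2, any 1 vehicle replicate or with total count scaling. Synj1, a phosphatase of vesicle uncoating named after its values were seen, was just past the threshold (-0.15 ± 0.05, adjusted p = 0.04895) and lost its call in 9 of 15 alternatives, among them without RANKL replicate 1 or 2 and without vehicle replicate 1 or 2. With total count scaling 1 gene of the list fell and 3 rose. The number that fell was 2 without RANKL replicate 1 or 2 or vehicle replicate 3 and 1 without vehicle replicate 1 or 2, and 1 gene rose without RANKL replicate 1 or 3.

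**Figure D4:**
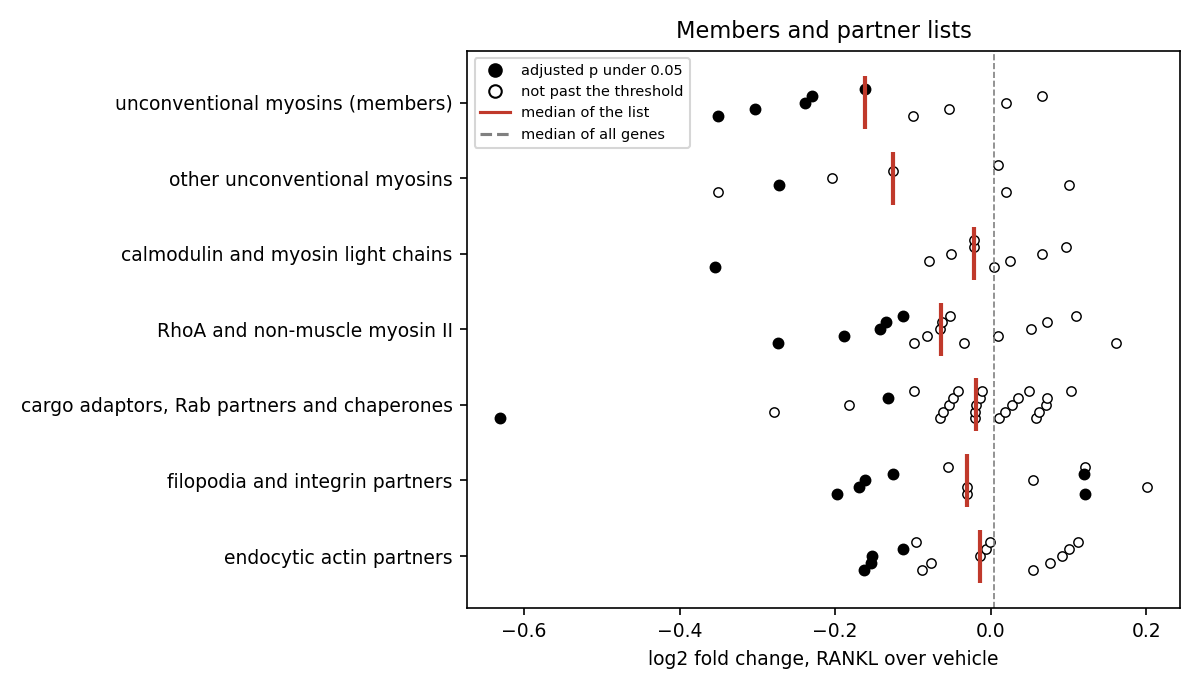
Log2 fold changes of RANKL over vehicle for the 9 members and the genes of 6 further lists, 1 point a gene, filled where edgeR's adjusted p was under 0.05; red bars are list medians and the dashed line the median of all genes at 0.0047. The member median is -0.16 and those of the lists run from -0.13 to -0.01.

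Marker genes of the culture were measured beside these values, again with 7.50% of all genes called lower and 5.35% higher. Skeletal muscle markers summed to between 26770 and 27380 CPM under RANKL and between 28430 and 30730 CPM under vehicle. Of these markers 3 of 9 were called lower (Acta1, Actn2 and Myh3) and 0 higher, and at an unadjusted p under 0.05, 4 were lower and 0 higher. Acta1, skeletal actin, had 5325 ± 128 CPM under RANKL and 6072 ± 57.0 under vehicle, and Myog, the differentiation factor, 542 ± 18.1 CPM under RANKL and 540 ± 13.5 under vehicle. Cycling cell markers summed to between 140.5 and 166 CPM under RANKL and between 101 and 110.5 CPM under vehicle, all 8 higher, with Mki67 at 52.1 ± 3.83 CPM under RANKL and 35.5 ± 2.09 under vehicle. Of 5 measured myoblast markers 1 rose (Cd34) and 1 fell (Spry1), and their sum was between 248 and 259 CPM under RANKL and between 261 and 275.5 CPM under vehicle. The part of these cell states in the values of the members was not tested.

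Few markers of other cell types were among the analysed genes. Of 12 macrophage and osteoclast markers 3 were measured (Cd68, Itgam and Cd14), with sums of 5.82 to 6.95 CPM under RANKL and 4.66 to 5.31 CPM under vehicle, and defining markers such as Ptprc, Csf1r, Acp5 and Ctsk are not among the analysed genes. Of each other list 2 markers were measured. Endothelial markers summed to 1.97 to 2.28 CPM under RANKL and 1.57 to 2.47 CPM under vehicle, adipocyte markers to 15.5 to 16.8 CPM under RANKL and 17.2 to 17.9 CPM under vehicle, and osteoblast markers to 29.1 to 31.8 CPM under RANKL and 32.4 to 34.2 CPM under vehicle. Defining markers of these types such as Pecam1, Adipoq and Sp7 are not among the analysed genes. None of these 9 genes was called, and 3 had an unadjusted p under 0.05 in edgeR's test, as had 3432 of all 12625 genes.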

How the data were processed

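RNA of 6 libraries of C2C12 myotubes (3 RANKL, 3 vehicle) was read by paired-end Illumina sequencing, per the labels. Per the submitters' processing notes, FastQC, STAR and edgeR were used with build mm10. The sources used here give neither the counter, nor its annotation, nor its use of strand. The authors deposited raw counts for 12625 gene symbols, followed by 4708 blank lines that were left out, with 32732604 to 39677999 counts per library. In each gene the third-highest library had at least 0.504 CPM, so low genes had been removed before deposit. Their second deposited table holds log2 values without a stated unit. Compared with the counts they are log2 of CPM per kilobase with a factor per library: the implied length of a gene varied by 0.000683 (SD, log2) between libraries.

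Groups come from the labels. The test was edgeR 4.0.16 (R 4.3.3) with TMM, filterByExpr (0 genes removed, so all 9 members entered) and the quasi-likelihood F test, at a Benjamini-Hochberg adjusted p under 0.05 over all genes. Each SE is the fold change over the square root of F. The members, lists and motifs were chosen with earlier results of these data known. The naming rule took the members, the other measured unconventional myosins, Myh9, Myh10 and Myh14 and up to 3 called genes per partner list by smallest p, and other names are marked. Some genes of these lists are counted but not reported here by themselves. Positions come from GENCODE M21, which matched 12176 symbols directly and 382 by an older symbol. The chi-square statistic per gene between replicates was 3.39 to 9.52, more than sampling noise gives. In simulated data for 12625 genes, 105 genes were changed by log2 0.3 and 95 by log2 1, none of them from the scarcest genes. Of these changes, 64.8% of log2 0.3 and 100% of log2 1 were recovered, and 4.68% of calls were unchanged genes. The real fit called 12.9% of all genes, a larger share than was changed here, so these rates may not carry over to it. DESeq2 1.42.0 and limma-voom (limma 3.58.1), other scalings and filters, left-out libraries, a replicate block, length and GC trends, and limma on the deposited log2 values (added after the data were seen) were the alternatives. The other filters kept all 12625 genes and repeat the main fit, so wherever alternatives are counted they add no separate check.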

Additional observations from a re-analysis of the deposited data

How the results depend on the processing

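The 5 members called lower were called in each of 16 alternatives, and 0 members were called higher in any. These alternatives include the other filters, which removed no gene and repeat the main fit. Without RANKL replicate 3 Myo5a was called as well, which gave 6, so leaving out libraries gave 5 to 6 lower. With total count scaling 1070 genes were higher and 626 lower (63.1% of calls higher, against 41.7% with TMM), while the median log2 fold change of all genes moved to 0.035. Under that scaling the RhoA list had 1 gene higher and 2 lower, the endocytic list 3 and 1, and the cargo list 2 and 1. With the length trend removed, 1, 2 and 1 genes of the RhoA, endocytic and cargo lists were higher. Leaving out each library in turn gave 373 to 746 genes higher and 537 to 880 lower. For the lists it gave 0 to 3 filopodia genes higher, 0 to 1 RhoA genes higher and 2 to 4 lower, 0 to 1 endocytic genes higher and 1 to 4 lower, 0 to 1 calmodulin and light chain genes higher, and 1 to 2 cargo genes lower. The causes were not tested. Log2 fold changes near 0 changed sign for Myo7b (-0.12 to 0.086 over left-out libraries) and Myh14 (9.3e-05 with the GC trend removed, -0.23 to 0.038 over left-out libraries). Myo6, likewise near 0, changed sign too (-0.013 with the GC trend removed, -0.031 to 0.068 over left-out libraries).

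Nothing in the labels says whether libraries with the same number belong together. Their deviations from the group means correlated at 0.129, 0.046 and 0.0105 for numbers 1, 2 and 3. Pairs with unlike numbers ran from -0.126 to 0.083, and not every library correlated best with its own number. Whether same-numbered libraries were paired cannot be told from these values. With the replicate number as a block, 730 genes were higher and 1008 lower, against 676 and 947 without it, and 5 members were lower and 0 higher.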
